A study of Mus musculus with 10 samples.

Results

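A set of 1512 autosomal ATAC-seq peaks was present in mouse neural stem cells of both sexes after deletion of Smchd1 and in neither control. These peaks were the autosomal entries of the deleted female list that shared at least 1 bp with a peak of the deleted male list and with no peak of the control female or control male list. On X and Y, 39 and 2 peaks met the same conditions and are not included. They made up 1512 of the 100826 autosomal peaks of the deleted female list, or 1.5%, out of 411696 autosomal peaks over the 4 lists. Presence and absence chose these peaks, so their number and their strength are given as a description and carry no test. They were selected on the presence and absence of called peaks in all 4 lists. In the same contrast, 12.5% of autosomal peaks of the deleted female list overlapped no control female peak, and 12.8% of those of the deleted male list overlapped no control male peak. In the other direction, 31.2% of control female peaks overlapped no deleted female peak and 25.4% of control male peaks overlapped no deleted male peak. The control lists were longer, with 126111 autosomal peaks in females and 98744 in males, against 100826 and 86015 in the deleted lists. They also had more tags in each sex, so the shares of the 2 directions are not matched for list length or depth.

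The cells were neural stem cells of the mouse strain C57BL/6, grown as lines from E14.5 embryos whose Smchd1 alleles were floxed in every group. The groups were Smchd1 del/del females with 3 libraries, Smchd1 del/del males with 2, Smchd1 fl/fl females with 3 and Smchd1 fl/fl males with 2. Deletion was by the retrovirus MSCV-Cre-puro, whose viral promoter drives Cre in any transduced cell, with puromycin added 24 h later and harvest on day 7. One protocol text accompanies all 10 samples, and it does not say what virus, if any, the fl/fl lines were given, so Cre, virus and selection cannot be told apart from loss of Smchd1. The male samples are called female in their description field and male in their title and sex field, and the latter 2 were followed. Each group was represented by 1 peak list from pooled libraries. Spread between libraries is therefore not seen, and every interval below is a 95% exact binomial interval that covers counting error only.

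SMCHD1 is a chromatin protein related to the SMC ATPases that shape chromosomes, and it is best known for keeping genes silent on the inactive X chromosome. It is also needed for silencing at some imprinted clusters, such as the one around Snrpn, and at some clustered gene families. ATAC-seq finds open DNA by letting the Tn5 transposase insert adapters where nucleosomes and bound proteins leave it exposed, and a peak is a stretch where insertions pile up over the local background.

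The lists rested on 139318421 tags (deleted females), 74674218 tags (deleted males), 144613215 tags (control females) and 91734730 tags (control males). Of 14 genes that mark neural stem cells, 13 had a peak within 1 kb of a gene end in both deleted lists and in the control female list, where Pax6 had none, and 14 had one in the control male list. Of 8 pluripotency and germline genes, between 1 and 3 had such a peak, and Pou5f1 and Nanog had none in any list. Of 7 microglia and blood genes, 2 had one in each list. End peaks also stood at 6 or 7 of 8 neuron genes and at 5 or 6 of 6 fibroblast genes in each list, so an open gene end does not by itself mark a cell type. Within 5 kb of these genes the deleted-only set held 0 of 80 deleted female peaks for neural stem cells, 0 of 69 for neurons, 0 of 18 for fibroblasts, 0 of 14 for microglia and blood and 0 of 9 for pluripotency. By a limit of 3 counts these allow shares from 3.75% to 33.3%, so a share near that over all autosomes cannot be told from 0.

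Few peaks of the set lay on a start site, as 29 of the 1465 on chromosomes with promoter sequence available overlapped a window of 250 bases before to 50 bases after a RefSeq start, which is 1.98% (1.33% to 2.83%). The share was 12.4% for all deleted female peaks, 17.1% for peaks found in all 4 lists and 1.77% for the reverse set, the 8614 control female peaks that overlapped a control male peak and no deleted peak. The sequences below, from RefSeq on GRCm38.p6 and each on the minus strand, belong to the 4 best-ranked of those peaks, and capitals mark the bases under the deleted female peak. They are chr7:60450128-60450427 at the shared upstream start of Snhg14 and Snrpn, chr7:60140176-60140475 at a second start of Snrpn, chr7:62823694-62823993 at A26c2 and chr7:104446076-104446375 at Trim30a.
Snhg14/Snrpn: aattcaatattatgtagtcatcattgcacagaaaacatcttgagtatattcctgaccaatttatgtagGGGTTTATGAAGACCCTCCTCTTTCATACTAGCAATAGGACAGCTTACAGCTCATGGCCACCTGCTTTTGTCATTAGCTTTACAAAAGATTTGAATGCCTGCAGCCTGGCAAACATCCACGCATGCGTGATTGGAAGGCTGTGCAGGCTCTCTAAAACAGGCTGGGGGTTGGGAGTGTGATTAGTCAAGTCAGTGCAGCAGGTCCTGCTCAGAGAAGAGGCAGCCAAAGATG
Snrpn: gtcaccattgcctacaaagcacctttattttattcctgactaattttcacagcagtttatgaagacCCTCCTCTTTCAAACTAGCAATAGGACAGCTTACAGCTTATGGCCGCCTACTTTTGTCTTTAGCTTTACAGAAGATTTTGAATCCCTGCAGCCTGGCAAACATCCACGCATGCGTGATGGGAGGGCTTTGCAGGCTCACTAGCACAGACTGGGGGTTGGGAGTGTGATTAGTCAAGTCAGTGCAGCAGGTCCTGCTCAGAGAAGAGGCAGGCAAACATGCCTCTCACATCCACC
A26c2: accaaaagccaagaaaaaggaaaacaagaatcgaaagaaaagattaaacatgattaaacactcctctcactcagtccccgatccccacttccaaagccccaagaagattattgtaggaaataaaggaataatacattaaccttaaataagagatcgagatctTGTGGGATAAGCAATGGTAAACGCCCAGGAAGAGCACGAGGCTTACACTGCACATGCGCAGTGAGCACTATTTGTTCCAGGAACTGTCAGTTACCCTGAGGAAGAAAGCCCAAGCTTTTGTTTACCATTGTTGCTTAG
Trim30a: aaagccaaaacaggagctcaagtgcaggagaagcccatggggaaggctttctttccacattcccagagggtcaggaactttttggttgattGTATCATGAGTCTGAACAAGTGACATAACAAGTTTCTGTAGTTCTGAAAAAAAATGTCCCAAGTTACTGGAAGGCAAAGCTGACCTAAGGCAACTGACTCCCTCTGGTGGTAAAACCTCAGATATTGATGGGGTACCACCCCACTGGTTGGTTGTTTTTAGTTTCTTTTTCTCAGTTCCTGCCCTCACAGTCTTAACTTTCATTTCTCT

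The 2 Snrpn windows resembled each other. In a global alignment they were identical at 252 of 284 aligned positions, or 88.7%, and the longest run they shared was 62 bases. That run occurred in no other of the 31365 promoter windows, on either strand. Reads from such similar copies can be hard to place, and the share of reads that mapped to both was not tested. The 4 windows were poor in CpG, with 2 at the shared upstream start, 3 at the second Snrpn start, 6 at A26c2 and 0 at Trim30a. By comparison, the median was 21 over the windows that held a peak of all 4 lists and 7 over all windows.

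Short motifs were searched on both strands of the 34 windows touched by the 29 peaks. Some of these windows overlap each other, such as those of Hand2 and its antisense gene Hand2os1, and the paired windows of Prxl2a and of AW551984. Both windows of the Prxl2a pair and of the AW551984 pair hold the AP-1 and the E-box letters. The same stretch can thus count more than once, and the windows are not independent as the intervals assume. The AP-1 letters TGANTCA were in 10 of 34, or 29.4% (15.1% to 47.5%), against 7.85% of all windows and 11.04% of the 163 windows with a reverse set peak. The NFI letters TTGGCA were in 9, or 26.5%, against 14.1% of all windows and 23.3% of those of the reverse set. The E-box CAGCTG was also in 9, against 16.3% and 27.6%. The GC box GGGCGG was in 7, or 20.6%, against 36.0%, and CCAAT was in 10, or 29.4%, against 37.3%. The SOX letters ACAATG were in 4 windows, or 11.8% against 12.2%, and the CTCF core motif and the CRE TGACGTCA were in none, which allows shares of up to 8.82%, against 2.47% and 1.83%. No AP-1 match lay in any of the 4 windows printed above, and a match of letters is not evidence of a bound factor.

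Peaks of the set were mostly weak, with a short tail of strong ones. Fold enrichment, the ratio of a peak's summit to its local background, and the −log10 q value are the authors' own values for each peak. Each belongs to its own list, and the lists differ in depth. Values from different lists are therefore set side by side as a description and were not tested. In deleted females the median fold enrichment was 2.79, the quartiles were 2.46 and 3.31 and the range was 1.53 to 9.28. Peaks found in all 4 lists had a median of 4.06 in the same list. The median −log10 q was 5.88 in the set and 16.3 for the peaks of all 4 lists, and the median width was 212 bp against 366 bp. Low strength was not particular to the set. The reverse set, in the control female list, had medians of 2.82, 6.59 and 204 bp. Other deleted female peaks missing from some list, grouped by the lists that held them, had median −log10 q values from 3.63 to 6.00. The matched male peaks had a median fold enrichment of 3.16, with a range of 1.70 to 13.95.

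With all deleted female peaks ranked by −log10 q and cut into 10 bins of equal size, 4 of 10083 in the strongest bin belonged to the set. The number rose from bin to bin up to 300, and was 295 in the weakest. A −log10 q of 10 or more in deleted females was reached by 311 of the 1512 peaks, or 20.6%, and 113 of them reached it in deleted males as well. For 20, 30 and 50 the counts were 63, 19 and 3. The larger reverse set held 1382 peaks at 10 or more in control females, 15 at 20 or more and none at 30 or more, and its highest fold enrichment there was 5.24. Its matched male peaks reached 14.9, above the 13.95 of the set. The reverse set rests on other lists, with more tags in each sex and more peaks, so these counts are set side by side and not compared by a test.

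The order of strength was partly shared by the sexes. Across the 1512 peaks, fold enrichment in deleted females and in deleted males had a Spearman correlation of 0.66, against 0.90 over the 68610 peaks of all 4 lists. This is a description over peaks, from 2 pooled lists, and the set spans a narrow range of strength. A subset with a weak female peak and a strong male peak stood beside a control peak. For example, the peak in Mapk10 had a fold enrichment of 3.03 in females and lay 175 bp from a control female peak. Its matched male peak had 13.95, but was 842 bp wide against 199 bp for the female peak. That male value is thus not a measure of the shared bases alone.

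**Figure D1:**
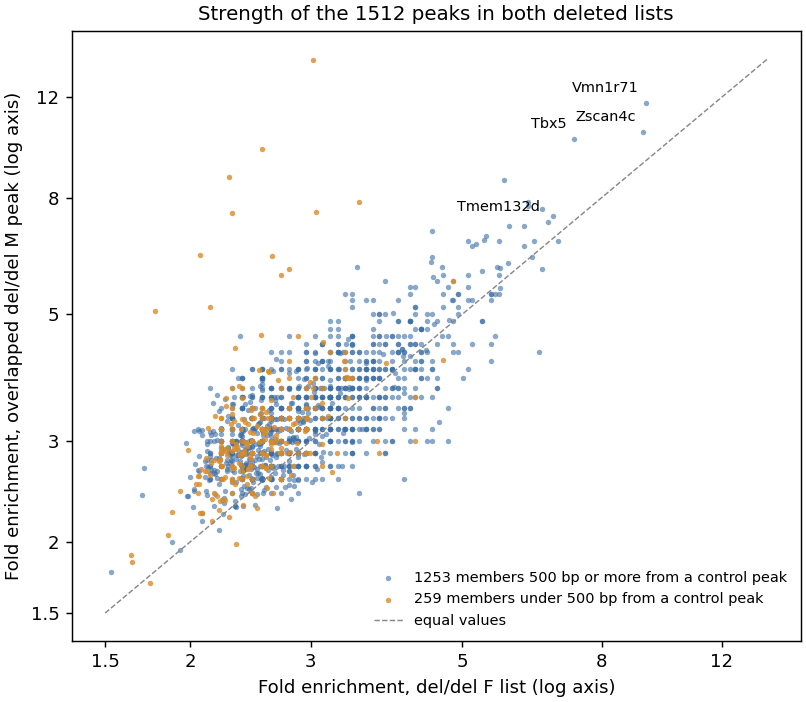
Fold enrichment of each of the 1512 peaks in the deleted female list (x axis, log scale) and of the overlapped deleted male peak (y axis, log scale). Orange points are the 259 peaks under 500 bp from a control peak, and the peaks at Vmn1r71, Zscan4c and Tbx5 stand at the upper right.

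Closeness to a control peak divided the set. A control peak of either sex lay within 500 bp of 259 peaks, or 17.1% (15.3% to 19.1%), and within 5 kb of 697. The median gap was 6 kb, and 163 peaks, or 10.8%, were over 50 kb from every control peak. The strongest male partner of 66 peaks itself overlapped a control peak, and all 66 lay within 500 bp of one. At the edge of the rule, the nearest peaks inside it lay 1 bp (Nid2), 3 bp (Fmnl2) and 4 bp (Slc15a1) from a control peak, with female fold enrichments of 2.55, 2.35 and 2.204. The nearest outside it overlapped a control peak by 1 bp (Lrrfip1), 2 bp (Gm6101) and 4 bp (Gm8762), with 2.198, 2.69 and 2.29.

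Peaks were ranked by −log10 q in each deleted list, and the mean of the female and male ranks set their order. The first lay between genes at the Zscan4 cluster of chromosome 7, at chr7:11034377-11035172. It stood 23.8 kb from Zscan4c, a zinc finger gene expressed in early embryos, with a fold enrichment of 9.21 in females and 10.4 in males. The nearest control female peak was 69.3 kb away and the nearest control male peak 188 kb away. A weaker peak 3.27 kb from Zscan4d reached 5.59 and 4.58. At chr7:10747813-10748320, over the pheromone receptor gene Vmn1r71, a second strong peak reached 9.28 and 11.7, with a weaker neighbour of 2.71 and 2.86 at the same gene.

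The third in rank, at chr5:119916481-119917237, was 31.3 kb away from the gene Tbx5, which encodes a regulator of heart and forelimb, and had 7.28 and 10.1. Inside Tbx5 another reached 5.67 and 6.03. Further along chromosome 5, Tmem132d, a membrane protein gene of the nervous system, held 6 of the set among its 11 deleted female peaks, against 5 peaks in the control female list. The strongest of these had 6.67 and 7.26 and the next 6.24 and 7.87. They are not all alike, since 2 of the 6, with 2.99 and 2.96 in females, lay 197 bp and 213 bp from a control female peak.

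Of the 20 best-ranked peaks, 10 were assigned to a lncRNA gene, 1 to a pseudogene and 9 to a protein-coding gene. The lncRNA gene 1700081B01Rik had one inside (6.80 in females and 7.44 in males) and one 15.2 kb away (5.85 and 7.13). The lncRNA genes Gm30532, Gm34052 and E330023G01Rik held peaks of 6.17, 5.75 and 6.90 in females and of 7.13, 8.58 and 6.72 in males. Pramel13, of a family expressed in germ cells and early embryos, held one of 6.32 and 6.29. Rimbp2, which encodes a protein of the presynaptic active zone, held one of 6.54 and 6.01, and L3mbtl4, which encodes a protein with MBT repeats, one of 5.63 and 6.04. The most isolated, at chr15:15091345-15091829, stood 625 kb from the pseudogene Gm9630 and 1637 kb from Cdh9, a cadherin gene, with 6.16 and 6.58. The remaining ones were next to Gm7538, Urml, Gm29982, Gm31353 and LOC108167682, at 4.45 to 66.7 kb. All 20 were more than 8 kb from any control peak. Over the 1512 peaks, lncRNA genes were assigned to 51 at gene ends, 82 inside genes and 202 outside genes. Of peaks outside genes, 31.3% of the set had a lncRNA gene nearest, against 35.4% of peaks in all 4 lists. A pseudogene was nearest for 29.5% against 21.1%.

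Peaks of the set were more often outside genes than the peaks kept in all 4 lists. Outside genes lay 645, or 42.7% (40.1% to 45.2%), against 29.1% of peaks in all 4 lists. Within 1 kb of a gene end lay 199, or 13.2% (11.5% to 14.97%), against 27.6%, and inside a gene lay 668, or 44.2%, against 43.3%. At protein-coding ends stood 90, or 5.95%, against 21.3%. The median distance to the nearest protein-coding gene end was 38.3 kb (33.5 to 43.9 kb) against 17.0 kb.

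Strength and position went together among the peaks of all 4 lists too, so the shares were also taken among peaks with −log10 q between 4.05 and 8.99, the quartiles of the set. There, 42.6% (39.1% to 46.2%) of 772 peaks of the set were outside genes, against 32.5% (31.8% to 33.3%) of 15139 peaks of all 4 lists. The shares at a gene end were 12.05% and 16.7%, and those over 100 kb from a protein-coding end were 29.9% and 18.8%. The reverse set was not matched for strength. At all strengths it had 10.7% at gene ends and 38.3% outside genes, against 13.2% and 42.7% of the set. No control female peak lay within 50 kb of 12.9% of the set, 1.62% of the peaks in all 4 lists and, leaving the peak itself aside, 2.29% of the reverse set. That measure counts control peaks, as the rule does, and is a description.

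The pattern was more marked among the stronger peaks. Of the 311 peaks with a −log10 q of 10 or more, 169, or 54.3% (48.6% to 59.97%), were outside genes and 50.5% were over 100 kb from a protein-coding end. Peaks of all 4 lists at the same cutoff gave 27.9% and 17.7%, and the reverse set gave 39.0% and 28.7%. The median distance to a protein-coding end was 108 kb for the 311, 15.4 kb for the peaks of all 4 lists and 37.2 kb for the reverse set.

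**Figure D2:**
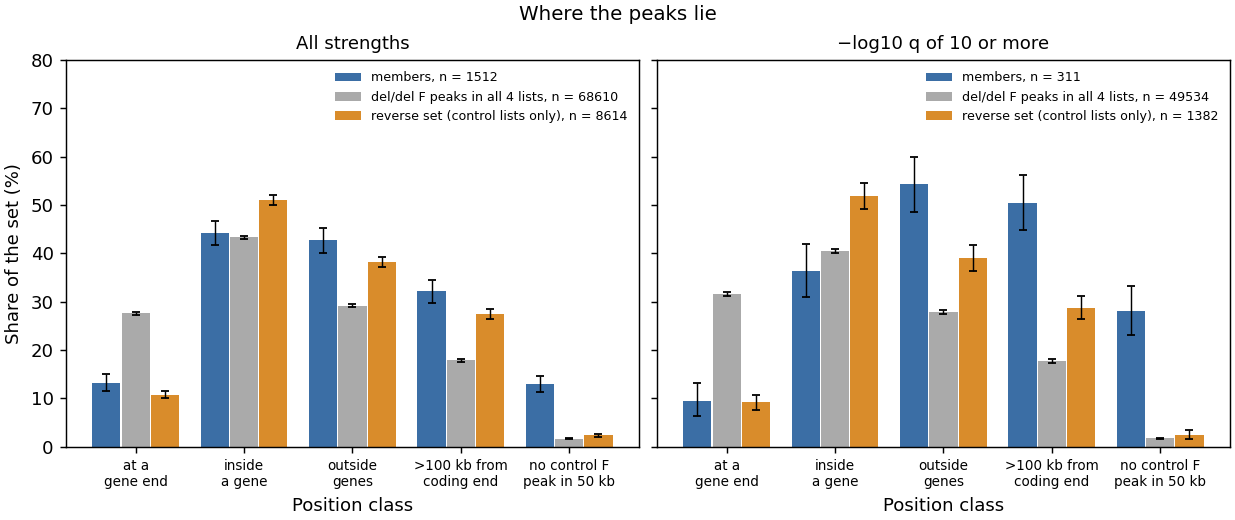
Share of peaks (y axis, %) in each position class for the set (blue), deleted female peaks in all 4 lists (grey) and the reverse set (orange), with 95% exact binomial intervals as bars, for all strengths and for a −log10 q of 10 or more. Outside genes the blue bars read 42.7% and 54.3%, above the grey bars at 29.1% and 27.9%.

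Gene-poor stretches held a larger share. Of deleted female peaks with no protein-coding gene within 500 kb of the summit, 90 of 2281 belonged to the set, or 3.95% (3.18% to 4.83%). With 1 or 2 genes the share was 2.097%, and with 3 or more it was between 1.21% and 1.41%. For peaks with a −log10 q of 10 or more the share fell at each step, from 4.04% (2.90% to 5.46%) with no gene to 0.245% (0.154% to 0.371%) with 21 or more.

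**Figure D3:**
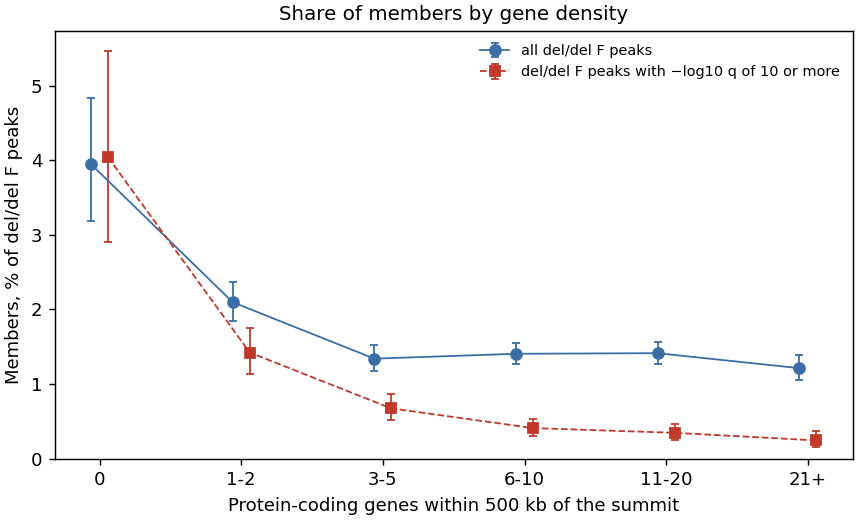
Share of deleted female peaks that belong to the set (y axis, %) by the number of protein-coding genes within 500 kb (x axis), with 95% exact binomial intervals, for all peaks (blue) and for those with a −log10 q of 10 or more (red). Both lines are highest with no gene, at 3.95% and 4.04%.

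Inside protein-coding genes lay 555 peaks in 467 genes, of which 410 genes held 1 and 57 held 2 or more. Taken once per peak, the median length of the gene that held it was 151 kb (131 to 165 kb). It was 130 kb for peaks of all 4 lists and 162 kb for the reverse set. The 87 such peaks with a −log10 q of 10 or more lay in genes with a median length of 417 kb (308 to 557 kb). Among the longest was Rbfox1, a neuronal splicing factor gene, with 9 of its 38 deleted female peaks in the set. Csmd1, a complement regulator gene of the brain, and Asic2, an acid-sensing channel gene, had 5 of 32 each. Cdh18, a cadherin gene, had 3 of 6, up to 6.49 in females and 4.43 in males. Over a list of 48 long neuronal genes, 46 of 1329 deleted female peaks, or 3.46%, belonged to the set, against 1.5% over all autosomes. In the same genes, 174 of 1747 control female peaks belonged to the reverse set, against 6.83% over all autosomes. These genes thus carried peaks of both kinds.

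By chromosome the share ran from 0.855% on chromosome 19 to 2.50% on chromosome 7. Chromosome 7 held 168 of the set among its 6708 peaks (2.14% to 2.91%), or 11.1% of the set on a chromosome with 6.65% of the peaks. Chromosomes 14, 5, 17 and 12 followed with 2.103%, 2.08%, 1.97% and 1.89%. The intervals of these 4 overlap each other and that of chromosome 7. Among the 100 best-ranked peaks, 22 were on chromosome 7 and 17 on chromosome 5. In the reverse direction, chromosomes 7 and 5 had the lowest shares of control female peaks, 5.15% and 5.77%, against 6.83% over all autosomes. Peaks of the set also lay more often in the first 20 Mb of a chromosome, 17.1% (15.2% to 19.1%), than the peaks of all 4 lists, 10.5%, and the reverse set, 9.24%.

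**Figure D4:**
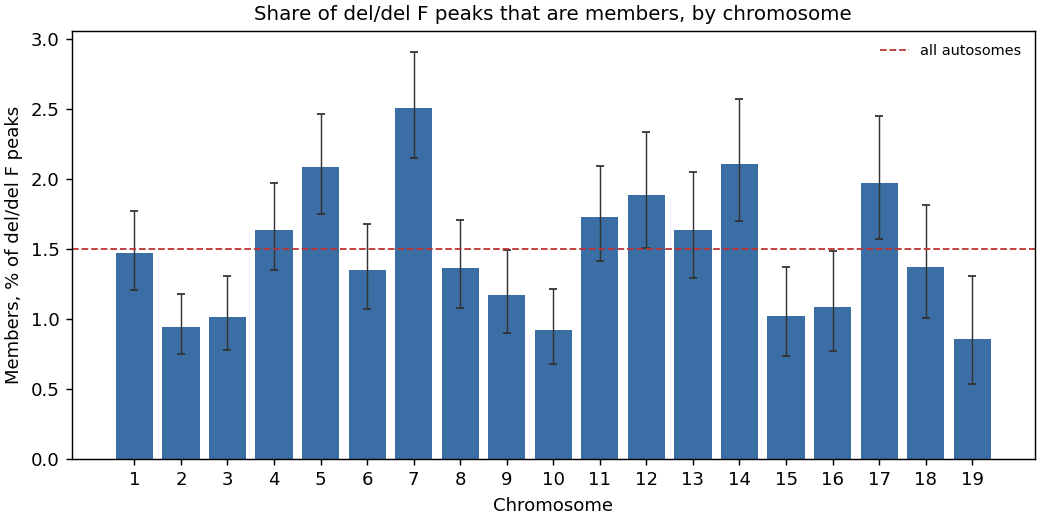
Share of autosomal deleted female peaks that belong to the set (y axis, %) on each chromosome (x axis), with 95% exact binomial intervals; the dashed line is the share over all autosomes. Chromosome 7 is highest at 2.50% and chromosome 19 lowest at 0.855%.

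Most peaks of the set stood alone. Joined at gaps of up to 50 kb, 284 of them, or 18.8%, fell into 128 clusters of 2 or more, and 66, or 4.37% (3.39% to 5.52%), into 19 clusters of 3 or more. The reverse set, joined in the same way, had 41.4% in clusters of 2 or more and 15.3% in clusters of 3 or more. It is larger, with 8614 peaks, and the 2 sets were not matched for number. Clustering is therefore not shown to be particular to the set. Of deleted female peaks with another peak of the set within 50 kb, 4.02% (3.58% to 4.51%) belonged to the set, against 1.31% of those with none. In windows of 1 Mb, 31 of 2413 windows with a deleted female peak held 5 or more and 193 peaks between them. The fullest windows were on chromosome 14 at the T-cell receptor alpha genes, with 11 of 63 peaks, and on chromosome 12 at the Serpina genes, with 10 of 76. Next came the window at Snrpn on chromosome 7, with 9 of 26, and the window before the fullest one on chromosome 14, with 9 of 61.

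The largest cluster had 6 peaks over 40.0 kb at chr12:104029978-104069930, at Serpina12, a serine protease inhibitor gene expressed in adipose tissue. Female fold enrichments ran from 2.27 to 3.45 and male ones from 2.87 to 5.44. Each control list had 2 peaks in the same span, and each deleted list had 8. A cluster of 5 at chr7:39848230-39942689 around the lncRNA Gm34052 had fold enrichments of 3.37, 5.75, 2.63, 4.93 and 3.78 in females and 4.15, 8.58, 3.29, 5.01 and 4.86 in males, in the order of their position. Neither control list had a peak in that 94.5 kb span. Rbfox1 held 4 peaks at chr16:6963633-7027601, all weak, with 2.22 to 3.04 in females, and no control peak in the span. The lncRNA Gm41414 held another 4, with 2.30 to 3.35 in females.

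Clusters of 3 with no control peak in the span included those at Gm30532 (best 6.17 in females), at Rimbp2 (6.54) and in Mtus2, a microtubule-associated protein gene (4.67). At Mtus2, these were all 3 of the deleted female peaks in its span. The pair of lncRNA genes Gm36252 and Gm36312 on chromosome 17 had 3, with a best of 5.50 in females and 5.44 in males, and 1 control female peak among them. The 1 Mb window that holds the homeobox gene Irx2, a transcription factor gene of patterning, had 7. Of these, 1, at 2.42 and 3.40, was 0.89 kb from an end of Irx2. The other 6 stood between genes, from 2.87 to 5.09 in females. Among them, a cluster of 3 lay nearest the lncRNA gene D730050B12Rik, 135 to 184 kb from Irx2. Others, 137 kb and 235 kb from Irx1, had that gene as the nearest protein-coding one.

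**Figure D5:**
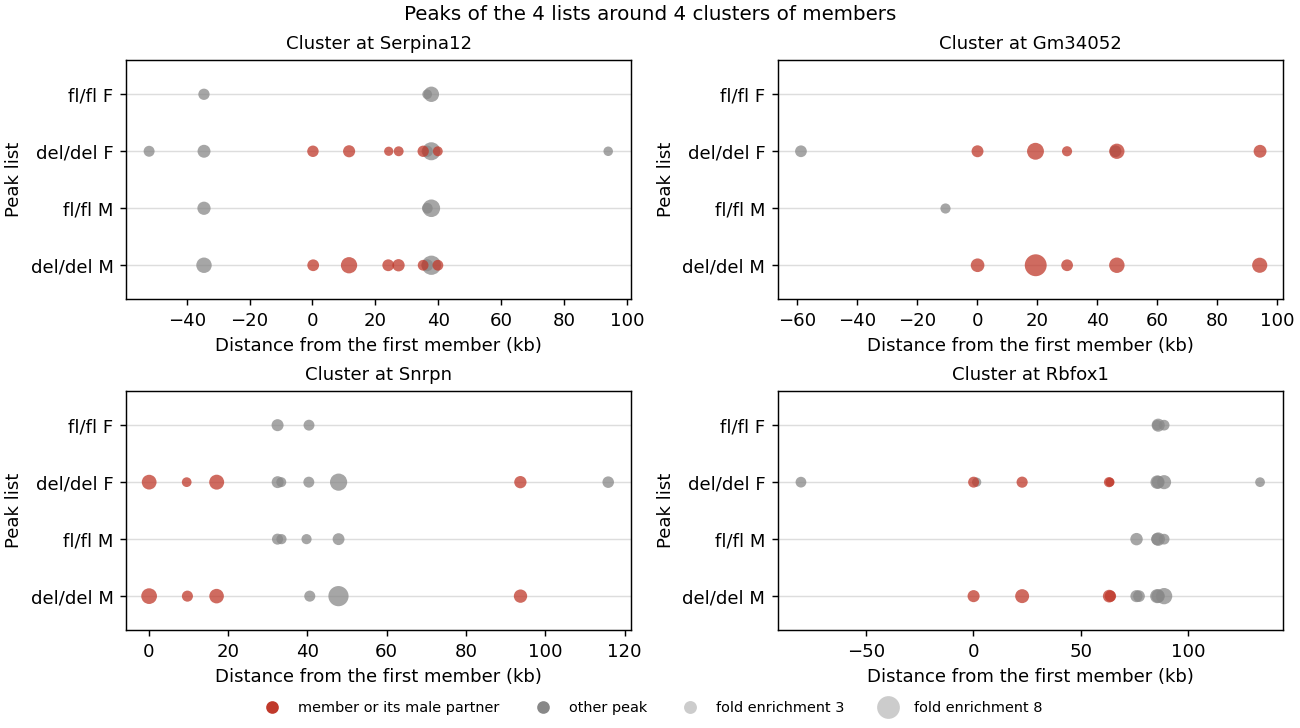
Peaks of the 4 lists (y axis) around clusters at Serpina12, Gm34052, Snrpn and Rbfox1, by distance from the first peak of the set (x axis, kb), with point area growing with fold enrichment. Red points are the set and their male partners, and the control lists show no peak at those positions.

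Snrpn, an imprinted gene expressed from the paternal copy, held 8 of its 18 deleted female peaks in the set, and the control female list had 8 peaks there. The long noncoding RNA Snhg14 spans it and held 9 of 50. The strongest was at their shared upstream start, whose sequence opens the list above, with 6.24 in females and 7.73 in males, and the nearest control peaks were 42.0 kb and 37.6 kb away. The other start, the second sequence above, had 4.76 and 4.58. The main Snrpn start at chr7:60005199 had a peak in all 4 lists, with 6.07 and 7.37 in the control female and male lists and 5.17 and 6.43 in the deleted ones. The remaining start, at chr7:60047978, had none in any list. Deleted-only peaks thus lay at 2 of the 4 starts in the promoter table, those farthest upstream. Over the listed genes of the Snrpn imprinted cluster, 9 of 75 deleted female peaks, or 12%, belonged to the set, against 1.5% over all autosomes. In the same genes, 3 of 77 control female peaks belonged to the reverse set, against 6.83% over all autosomes. ATAC-seq peaks carry no parental origin, so which copy was open is not known here.

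The other imprinted genes on the list gave 2 of 267 deleted female peaks, or 0.749%, against 1.5% over all autosomes. A count of 2 is too small to tell these shares apart. Both peaks were in the Dlk1 to Meg3 cluster of chromosome 12. One lay inside the noncoding RNA Meg3 (2.85 and 2.91) and one at Rian, 994 bp from the microRNA gene Mir1188 (2.14 and 3.07). The 1 Mb window there held 8 of its 45 peaks, and the strongest, 84.8 kb from Dlk1, had 4.02 and 4.58.

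Immune receptor loci, whose segments are rearranged in lymphocytes, held several. The T-cell receptor alpha locus Tcra held 20 of 103 deleted female peaks, from 2.22 to 5.34, with 5 in a cluster between Trav12d-1 and Trav9d-2 and 3 in another at Trav4d-4. The heavy-chain locus Igh held 9 of 60 and the kappa locus Igk 5 of 41. The 3 loci held 4, 3 and 4 of the reverse set. Over all autosomes, 1.5% of deleted female peaks belonged to the set and 6.83% of control female peaks to the reverse set. Cpne4, a copine gene, and Zfp993, a zinc finger gene in a repeated cluster, held 4 each, of 18 and 58.

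Gene families in tandem arrays gave small counts. Vomeronasal type 1 receptors held 3 of 44, 2 of them at Vmn1r71 and 1 at Vmn1r78 (3.78 and 4.29), and type 2 receptors 7 of 175. Olfactory receptor genes held 5 of 148, the strongest at Olfr1065 (4.68 and 5.87). Serpina and Serpinb genes held 4 of 53, and Pramel genes 2 of 6. The clustered protocadherins, adhesion genes of neurons, held 2 of 62, the stronger at Pcdhb11 (2.87 and 4.58). Hox genes held 0 of 62, homeobox genes of brain patterning 0 of 127 and the Psg and Ceacam genes 0 of 21. By the limit of 3 counts, a count of 0 allows shares of up to 4.84%, 2.36% and 14.3% in these 3 lists, each above the 1.5% over all autosomes.

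Peaks at protein-coding gene ends were few, and some of the best ranked were close to control peaks. Over the whole set, 17.1% lay within 500 bp of a control peak. After Vmn1r71 and the upstream Snrpn start, the best ranked were at Ajap1 (3.09 and 3.72), Ubxn10 (4.43 and 4.34) and A26c2 (3.45 and 5.15), the last 53.3 kb from any control peak. Trim30a, a gene of innate immunity, had one near a start (4.27 and 4.01, 18.8 kb from a control peak) and one at its upstream end (2.55 and 9.73), 92 bp from a control peak. Trim6 (3.41 and 3.87), Inhbb, the inhibin beta B subunit (2.36 and 2.75), and Sox8, a SOX transcription factor (1.78 and 5.07), had theirs 161 bp, 59 bp and 97 bp from one. The male values at the upstream end of Trim30a, at Inhbb and at Sox8 belong to wider male peaks. These were 625, 892 and 754 bp wide, against 185, 174 and 172 bp in females. Gm19470 (3.53 and 4.29), Gm21149 (2.99 and 3.27), 1700012P22Rik (3.32 and 3.72) and Abcg3 with Gm29716 (2.96 and 4.43) completed the 15 best, together with Irx2 and a second peak at the upstream Snrpn start (3.45 and 4.58).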

How the data were processed

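ATAC-seq was run on 10 libraries of neural stem cell lines in 4 groups. Per the submitters' processing notes, the build was mm10 and the tools listed, with no roles, were Bowtie2 2.2.5, Trim Galore 0.4.0, bcl2fastq, Picard, SAMtools, edgeR and MACS2. Per the file headers, each list came from 1 alignment per group and MACS 2.1.0.20140616, run with a q-value cutoff of 0.05, tags extended to 150 bp and a shift of 75 bp upstream. Each deposited peak has a width in bp, a pileup (a signal height), a fold enrichment (a ratio to local background) and a −log10 q value, all the authors' own. Tags used numbered from 74674218 to 144613215, with tag sizes of 53 to 63 bp, so depth and read length differ between the lists.

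Overlap meant 1 bp or more. Where a female peak overlapped several male peaks, the strongest by −log10 q was its partner, and ranks were by −log10 q within a list. A gene end was the RefSeq start or end of a gene (GRCm38.p6, whose sequence is that of mm10) within 1 kb of the peak. That table has no exons, so exons, introns and UTRs were not separated. Gene lists took gene bodies with 5 kb on each side. No genome sequence was used here, so motifs were searched only in RefSeq promoter windows, and windows of chromosome 18 were not used here. With 1 list per group no test was run and shares carry 95% exact binomial intervals. The calling was tested on simulated lists. Columns of per-sample values left unused numbered 0. Software was matplotlib 3.10.9, scipy 1.17.1, numpy 2.4.6, pandas 2.3.3 and Python 3.11.15.

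Named were the 20 best-ranked peaks, the 15 best at protein-coding ends, the 10 largest clusters, genes holding at least 4 peaks, up to 6 genes per list and 3 peaks on each side of the rule's edge. Mapk10, Hand2, Dlk1, the peaks near Zscan4d and the Irx2 window were named after their values were seen. The set, the lists and the rules were chosen with earlier results of these data known. Alternatives covered overlap, list length, strength, margin, gene-end window and cluster gap.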

Additional observations from a re-analysis of the deposited data

How the results depend on the processing

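Of 35 alternative settings over 8 results, 19 left the value near the reported one and 16 moved it. With every list reduced to 86015 peaks, the shortest length, 3045 peaks met the rule, of which 1063 were among the 1512, and the reverse set had 4196. This setting drops control female peaks under a −log10 q of 6.59, so weaker control peaks no longer count as present. It gave a median distance to a protein-coding end of 31.8 kb, 8.14% in clusters of 3 or more and a median fold enrichment of 2.87. With a −log10 q of 10 or more in both deleted lists 113 remained, and with the same limit on both control lists the reverse set had 391. With that limit in deleted females alone, 54.3% were outside genes, the median distance was 108 kb, 2.89% were in clusters of 3 or more and 16.1% were on chromosome 7. Gene ends within 500 bp gave 8.66% and within 2 kb 19.3%. Gaps up to 20 kb gave 1.26% in clusters of 3 or more and up to 100 kb 11.2%. Peaks over 500 bp from a control peak, 1253 in all, had a median fold enrichment of 2.87.

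No paired analysis was possible because each group has 1 pooled list and its columns carry no replicate number. For the same reason no library could be left out and the number of tags could not be varied. The requirement that the male partner overlap no control peak, which left 1446, and the location shares over 500 bp from a control peak were chosen after seeing the data.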
